A study of Mus musculus with 10 samples.

Results

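The genes described here encode the SR proteins and the hnRNPs, the main families of splicing regulators. They were taken by name: protein-coding genes whose symbol begins with Srsf and a digit, or with Hnrnp, numbered 31 of the 55536 genes measured, of which 21816 were protein coding. There were 11 SR protein genes (Srsf1 to Srsf7 and Srsf9 to Srsf12) and 20 hnRNP genes (Hnrnpa0, Hnrnpa1, Hnrnpa2b1, Hnrnpa3, Hnrnpab, Hnrnpc, Hnrnpd, Hnrnpdl, Hnrnpf, Hnrnph1, Hnrnph2, Hnrnph3, Hnrnpk, Hnrnpl, Hnrnpll, Hnrnpm, Hnrnpr, Hnrnpu, Hnrnpul1 and Hnrnpul2). The rule used no measured value, and all 31 passed the expression filter and were tested. RNA was sequenced from sorted mouse fetal oocytes at E16.5 (embryonic day), with 5 Taf4b-heterozygous and 5 Taf4b-deficient libraries from 3 litter dates. TAF4b belongs to the core-promoter complex TFIID and is enriched in germ cells, and the design asks how its loss alters the oocyte transcriptome. Female embryos of strain C57BL/6 came from parents that carried the Taf4b mutation on 1 copy and were homozygous for the Oct4-EGFP transgene (B6;129S4-Pou5f1tm2Jae/J), so both genotypes carry the transgene and the control embryos also carry the mutation on a single copy. Cells were sorted by green fluorescence, which the transgene gives germ cells, and dead cells were excluded with propidium iodide. The labels do not say how many embryos went into a library, nor whether libraries of a litter date are siblings. The p-values thus reflect variation among these libraries only, which may be technical between libraries of the same litter date.

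SR proteins bind exonic sequences of nascent transcripts and recruit the spliceosome through domains rich in arginine and serine. The hnRNPs package nascent RNA and often act against exon inclusion, although members of both families can do either, depending on where they bind. Several family members limit their own level by splicing that sends their transcripts to nonsense-mediated decay, so their gene counts can include transcripts that make no full protein. Germ cells in meiotic prophase carry out extensive alternative splicing.

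Heterozygous libraries held 18174900 to 26983600 counts and deficient libraries 16707200 to 23680000, each rounded. The 31 genes took 0.789% to 0.973% and 0.690% to 0.914% of them. Levels are given as CPM, the counts scaled by library size and composition. Taf4b itself was above every deficient library in 4 of 5 heterozygous libraries. At 65.7 CPM, the library labelled heterozygous 4 fell inside the span of the deficient libraries, 58.2 to 81.7 CPM, and this gene does not bear out its label. The 7 pan-germ cell markers, all detected, summed to 4160.1 to 6987 CPM in heterozygous and 3373 to 5796 CPM in deficient libraries. Nearly all of these sums came from Ddx4, Dazl, Mael and Tex101. Dnd1, Nanos3 and Pou5f1 reached at most 10.8, 1.53 and 1.16 CPM in any library. The 10 meiotic prophase markers summed to 5245 to 9375 CPM in heterozygous and 6917 to 9452 CPM in deficient libraries. Markers of pregranulosa cells (8 genes), stroma (7), surface epithelium (7), endothelium (6) and macrophages (7) summed to at most 118, 102, 43.3, 93.7 and 201 CPM in any library. Of 8 erythroid markers, Hbb-bh1 was at 0 in all libraries. Their sum reached 719 CPM for the library labelled heterozygous 4, 2083 CPM for heterozygous 5 and 1605 CPM for deficient 5, with at most 220.2 CPM elsewhere. In bulk samples, fewer cells of a type and less RNA per cell cannot be told apart.

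The upstream sequences of 3 members are shown because Srsf9 had the widest spread of levels, Hnrnpa1 was high in the same heterozygous libraries that were high for erythroid genes, and Hnrnpa0 is called in the authors' deposited table, and because no annotated exon lies in these windows. Each is the 250 bases before the RefSeq transcription start (GRCm38.p6), written 5′ to 3′ on the strand of the gene, with capitals for matches on either strand to the TATA-box core TATAAA, the CCAAT box and the GC box GGGCGG. The Srsf9 window is chr5:115326927-115327176 on the plus strand, that of Hnrnpa1 is chr15:103240147-103240396 on the plus strand and that of Hnrnpa0 is chr13:58128557-58128806 on the minus strand.
Srsf9: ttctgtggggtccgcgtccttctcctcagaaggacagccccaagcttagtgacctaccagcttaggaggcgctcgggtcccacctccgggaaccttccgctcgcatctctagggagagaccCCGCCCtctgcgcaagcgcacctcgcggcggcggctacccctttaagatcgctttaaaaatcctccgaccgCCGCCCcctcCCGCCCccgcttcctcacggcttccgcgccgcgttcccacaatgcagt
Hnrnpa1: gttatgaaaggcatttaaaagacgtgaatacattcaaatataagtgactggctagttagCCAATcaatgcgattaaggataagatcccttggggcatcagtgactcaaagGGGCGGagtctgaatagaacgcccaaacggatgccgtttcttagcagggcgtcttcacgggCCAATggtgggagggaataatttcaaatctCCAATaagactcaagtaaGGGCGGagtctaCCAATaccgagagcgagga
Hnrnpa0: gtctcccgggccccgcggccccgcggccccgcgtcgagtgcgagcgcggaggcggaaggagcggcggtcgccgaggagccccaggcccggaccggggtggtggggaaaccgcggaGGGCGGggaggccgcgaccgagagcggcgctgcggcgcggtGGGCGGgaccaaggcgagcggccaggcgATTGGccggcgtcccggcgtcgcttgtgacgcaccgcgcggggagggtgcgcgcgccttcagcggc
The Srsf9 window holds 3 GC boxes and no CCAAT box, the Hnrnpa1 window 2 GC boxes and 4 CCAAT boxes, and the Hnrnpa0 window 2 GC boxes and 1 CCAAT box, and none of the 3 holds TATAAA. RefSeq promoter windows, from 250 bases before to 50 after the start, were matched for 29 of 31 members, all except Hnrnpll and Hnrnpul2. A gene was counted if any of its windows held the motif. The GC box letters GGGCGG, the sequence bound by SP factors, were in 24 of 29 members (82.8%) against 38.2% of all 27025 genes with a window. The CCAAT letters, bound by NFY, were in 17 members (58.6%) against 41.1%. TATAAA, the core of the TATA box, was in 4 members (13.8%; Hnrnpab, Hnrnpm, Srsf2 and Srsf3) against 15.7%. The comparison takes in genes of every type, so these shares describe the windows and no more.

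Between genotypes, no member passed the threshold by edgeR's quasi-likelihood test with Benjamini-Hochberg adjustment over all 19244 genes tested: 0 of 31 had an adjusted p under 0.05, and so did 0.0% of all genes (0 genes). By the same test 5 of 31 members (16.1%) had an unadjusted p under 0.05, beside 16.6% of all genes (3190), so the members' share is near the background. Of these 5, all hnRNP genes, 3 were higher in deficient libraries (Hnrnpul2, Hnrnpa0 and Hnrnpd; background 7.45%) and 2 were lower (Hnrnph2 and Hnrnpa1; background 9.13%). DESeq2 on genotype called 1 member (background 3.02%) and limma voom with quality weights also called 1 (background 2.65%), both times Hnrnpul2, while limma on log2(TPM + 1) called 0. The median log2 fold change of the 31 members, deficient over heterozygous, was 0.037 (-0.0029 for SR and 0.055 for hnRNP genes) beside -0.015 for all genes. Fold changes were positive in 18 of 31 members, 5 of 11 SR and 13 of 20 hnRNP genes, beside 48.9% of all genes. In 23 of 31 members (74.2%) the size of the log2 fold change was under 0.5, beside 67.6% of all genes. In 1 member, Hnrnpul2, the genotypes did not overlap (3.23% of members, beside 3.53% of all genes and 1.94% higher in deficient libraries).

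**Figure D1:**
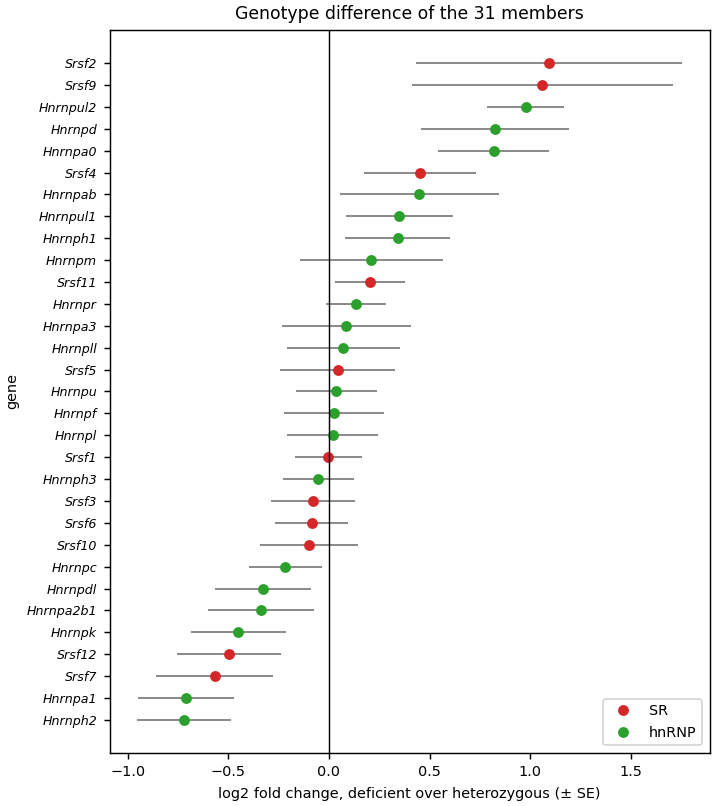
Log2 fold change of each of the 31 members, deficient over heterozygous, from edgeR on genotype, with bars of ± 1 SE; SR genes are red and hnRNP genes green. Points run from -0.72 for Hnrnph2 to 1.09 for Srsf2, whose SE of 0.66 is the largest, and none passed the threshold.

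The authors' deposited table calls 4 of the 31 members (12.9%), all higher in deficient oocytes, beside 6.55% of the 17881 genes with an adjusted p there and 3.2% called higher. In the authors' deposited table the log2 fold change was 0.91 (adjusted p = 6.41e-04) for Hnrnpul2, 0.79 (adjusted p = 0.0232) for Hnrnpa0, 1.10 (adjusted p = 0.0327) for Srsf2 and 1.12 (adjusted p = 0.0418) for Srsf9. That table was made from the same counts and is no independent support for the values given here. Its fold changes are rebuilt by DESeq2 with a 3-level grouping of the libraries as a covariate, called the deposited grouping here, which was found by search. The first level holds heterozygous 1 and deficient 1 and 2, and the second heterozygous 2 and 3 and deficient 3 and 4. The third holds the library labelled heterozygous 4, heterozygous 5 and deficient 5. With that covariate in edgeR, 1 member was called (background 0.54%), Hnrnpul2.

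Among the SR genes, Srsf9 and Srsf2 stood apart by the size of their differences between libraries. Srsf9 (ENSMUSG00000029538, GRCm38 chromosome 5, 115327177 to 115333080, plus strand) encodes a short SR protein that acts in splice site choice. It was at 537, 156, 84.2, 20.8 and 64.0 CPM in heterozygous libraries 1 to 5 and at 387, 412, 429, 423 and 145 CPM in deficient libraries 1 to 5. Heterozygous 1 was the highest of all 10 libraries and the library labelled heterozygous 4 the lowest, 25.8-fold apart. Deficient 1 to 4 lay close together, deficient 5 was lower, and the genotypes overlapped. Among the 9235 tested genes with a mean above 10 CPM, 45 (0.487%) spread at least as widely over the heterozygous libraries. The mean was 172 ± 209.5 CPM over heterozygous and 359 ± 121 CPM over deficient libraries (SD, n = 5 each). The log2 fold change was 1.06 ± 0.65 (SE; unadjusted p = 0.126 and adjusted p = 0.422 by edgeR). Without heterozygous 1 it was 2.15 (adjusted p = 0.0428 by edgeR), without the library labelled heterozygous 4 0.78 (adjusted p = 0.587), and without the 3 libraries high for erythroid genes 0.68 (adjusted p = 0.539). Over the 28 settings it ran from 0.35 without the second litter date (adjusted p = 0.981 by edgeR) to 2.65 without the first (adjusted p = 0.0609 by edgeR). By litter date, in date order, the log2 differences were 0.42, 3.33 and 1.95, and by level of the deposited grouping they were -0.43, 1.89 and 1.99, with the first level of the opposite sign.

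Srsf2 (ENSMUSG00000034120, GRCm38 chromosome 11, 116849901 to 116853094, minus strand), whose protein acts in exon inclusion, followed a similar order of libraries. It was at 289, 72.6, 29.0, 14.4 and 37.2 CPM in heterozygous libraries 1 to 5 and at 245, 272, 191, 164 and 71.8 CPM in deficient libraries 1 to 5. Heterozygous 1 was again the highest library and the library labelled heterozygous 4 the lowest, 20.1-fold apart, and deficient 5 was again the lowest deficient library. The mean was 88.4 ± 114 CPM over heterozygous and 189 ± 78.3 CPM over deficient libraries (SD, n = 5 each). The log2 fold change was 1.09 ± 0.66 (SE; unadjusted p = 0.121 and adjusted p = 0.416 by edgeR). It was 2.30 without heterozygous 1 (adjusted p = 0.0363 by edgeR), 0.83 without the library labelled heterozygous 4 (adjusted p = 0.597), and 0.75 without the 3 libraries high for erythroid genes (adjusted p = 0.573). Its lowest value in the 28 settings was 0.28, without the second litter date (adjusted p = 0.986 by edgeR), and its highest 2.71, without the first (adjusted p = 0.0609 by edgeR). By litter date the log2 differences were 0.76, 3.47 and 1.54. By level of the deposited grouping they were -0.16, 1.94 and 1.63. The spans of Mettl23 and Mfsd11 overlap that of Srsf2 on the other strand. Whether exons are shared was not examined and no source used here gives the strand setting, so some reads may not be told apart. In heterozygous 1, the library labelled heterozygous 4, heterozygous 5 and deficient 5, in that order, the sums of the 10 meiotic prophase markers were 9333, 5245, 6024 and 6917 CPM. Single genes of that list differed in their order of libraries. Stra8, a driver of meiotic entry, was at 965, 56.3, 10.3 and 156 CPM in those 4 libraries, high in heterozygous 1. Like Stra8, the listed genes Sycp2, Sycp3, Smc1b, Stag3, Rec8 and Dmc1 were highest of the 4 in heterozygous 1. Hormad1 was highest in deficient 5. Only Sycp1 and Spo11 of the list were lowest of the 4 in heterozygous 1. Sycp1, a protein of the synaptonemal complex, was at 1326, 1411, 1932 and 1646 CPM. Spo11, which makes meiotic DNA breaks, was at 245, 306, 270.4 and 413 CPM. The part of meiotic stage in the levels of Srsf9 and Srsf2 was not tested.

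**Figure D2:**
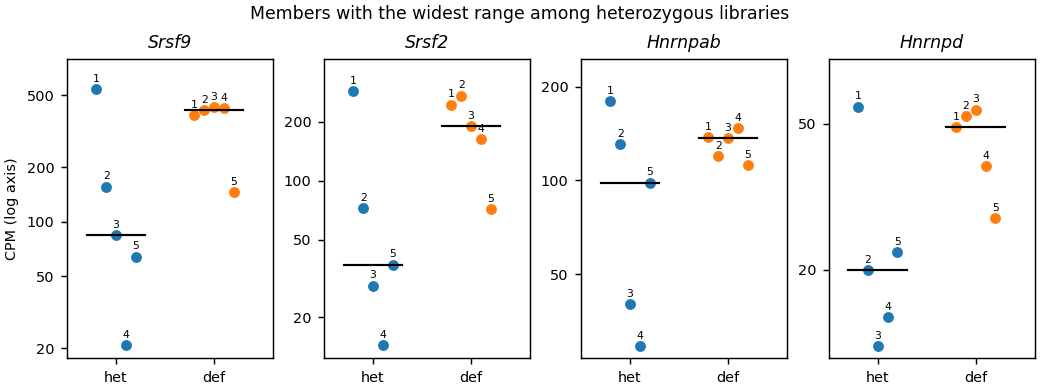
CPM (log axis, a separate axis per gene) of Srsf9, Srsf2, Hnrnpab and Hnrnpd in each heterozygous (het, blue) and deficient (def, orange) library, with the replicate number above each point and a line at the median. For Srsf9, heterozygous libraries run from 20.8 to 537 CPM and deficient libraries from 145 to 429 CPM.

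The other SR genes differed less between libraries. Srsf7, which acts in splicing and in mRNA export, was at 524, 499, 1134, 375 and 422 CPM in heterozygous libraries 1 to 5 and at 433, 398, 355, 489 and 319 CPM in deficient libraries 1 to 5. Heterozygous 3 stood far above the rest, and 2 deficient libraries were below all heterozygous libraries. Its log2 fold change was -0.57 ± 0.29 (SE, adjusted p = 0.343 by edgeR), and -0.20 without heterozygous 3. Srsf5, the SR gene with the highest mean TPM (a level scaled by transcript length and library size) at 225, was at 864, 821, 1159, 448 and 469 CPM in heterozygous libraries 1 to 5 and at 1000.3, 893, 650.1, 792 and 539.6 CPM in deficient libraries 1 to 5. The groups overlapped widely, with the library labelled heterozygous 4 and heterozygous 5 lowest, and the log2 fold change of 0.043 ± 0.29 (SE, adjusted p = 0.958 by edgeR) took either sign under other settings. Srsf12, a low-level SR gene, ranged over 9.29 to 22.1 and 8.71 to 16.6 CPM in heterozygous and deficient libraries, and Srsf4 over 6.81 to 16.7 and 11.3 to 22.2 CPM. Their log2 fold changes were -0.50 ± 0.26 (SE, adjusted p = 0.350 by edgeR) and 0.45 ± 0.28 (SE, adjusted p = 0.425 by edgeR). Srsf1, the founding member of the family, was at 126 ± 13.5 CPM over heterozygous and 125 ± 17.9 CPM over deficient libraries (SD, n = 5 each), and its log2 fold change was -0.0029 ± 0.17 (SE, adjusted p = 0.995 by edgeR). Srsf3, one of the smallest SR proteins, averaged 379 ± 85.9 CPM over heterozygous and 358 ± 64.6 CPM over deficient libraries (SD, n = 5 each). Srsf6, Srsf10 and Srsf11 ranged over 218 to 352 and 241 to 288 CPM, 191 to 449 and 196 to 334 CPM and 242 to 284 and 224 to 341 CPM, the first range of each pair in heterozygous and the second in deficient libraries. For Srsf11, 4 deficient libraries were above every heterozygous library and deficient 3 was below them all.

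**Figure D3:**
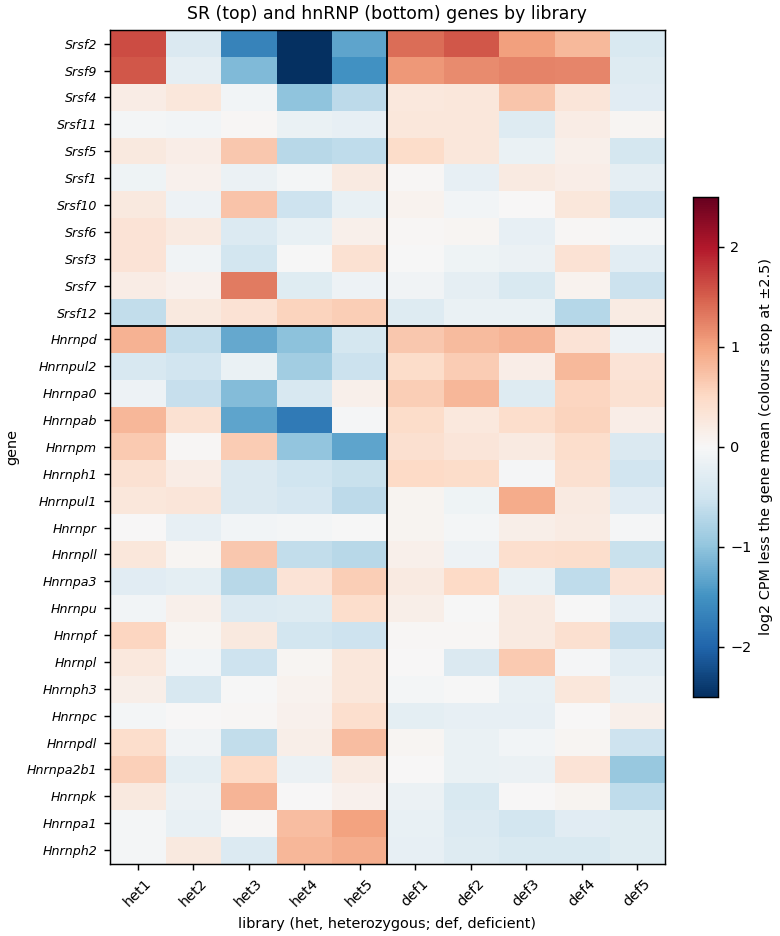
Level of each member in each library, as log2 CPM less the mean of that gene over the 10 libraries (red above, blue below, colours stop at ± 2.5), with SR genes above the horizontal line and hnRNP genes below it, ordered by genotype difference. Srsf2 and Srsf9 are darkest, high in heterozygous 1 and deficient 1 to 4 and low in the library labelled heterozygous 4 (het4), while Hnrnpa1 and Hnrnph2 are high in het4 and het5.

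Among the hnRNP genes, Hnrnpul2 showed the clearest separation of the genotypes. Hnrnpul2 (ENSMUSG00000071659, GRCm38 chromosome 19, 8820010 to 8834143, plus strand) encodes a nuclear RNA-binding protein related to hnRNP U that also takes part in the response to DNA breaks. It was at 22.2, 21.1, 26.2, 16.2 and 20.4 CPM in heterozygous libraries 1 to 5 and at 40.4, 46.0, 33.2, 51.9 and 37.6 CPM in deficient libraries 1 to 5. All 5 deficient libraries were above all 5 heterozygous libraries. The mean was 21.2 ± 3.62 CPM over heterozygous and 41.8 ± 7.30 CPM over deficient libraries (SD, n = 5 each). The log2 fold change was 0.98 ± 0.19 (SE; unadjusted p = 1.89e-04 and adjusted p = 0.113 by edgeR). It was called by DESeq2 (adjusted p = 0.00251), by limma voom with quality weights (adjusted p = 0.0338), and by edgeR without heterozygous 1 (adjusted p = 0.0376). It was also called by edgeR without the low-count filter (adjusted p = 0.0459) and with the deposited grouping as a covariate (adjusted p = 0.0361). In the other 23 of 28 settings, including litter date in the model (adjusted p = 0.0832), it was not called. Over all 28 its log2 fold change ran from 0.73 to 1.10. By litter date the log2 differences were 0.90, 0.92 and 1.11, and without the library labelled heterozygous 4 the fold change was 0.89. The span of a further annotated gene, AC129217.1, overlaps that of Hnrnpul2 on the same strand. Whether exons are shared was not examined, so some of its reads may be uncertain.

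Hnrnpa0 and Hnrnpd, RNA-binding proteins that also bind AU-rich elements of mRNA, were higher on average in deficient libraries. Hnrnpa0 was at 10.2, 7.44, 5.19, 8.37 and 12.1 CPM in heterozygous libraries 1 to 5 and at 17.0, 19.9, 8.89, 16.1 and 14.6 CPM in deficient libraries 1 to 5, and 4 deficient libraries were above every heterozygous library while deficient 3 lay among them. Its log2 fold change was 0.82 ± 0.28 (SE; unadjusted p = 0.0108 and adjusted p = 0.189 by edgeR), and by litter date the log2 differences were 0.95, 1.00 and 0.34. Hnrnpd was at 55.6, 19.99, 12.4, 14.9 and 22.3 CPM in heterozygous libraries 1 to 5 and at 48.9, 52.5, 54.6, 38.4 and 27.7 CPM in deficient libraries 1 to 5. Heterozygous 1 was the highest of all 10 libraries, and the other 4 heterozygous libraries lay below every deficient library. The log2 fold change was 0.83 ± 0.37 (SE; unadjusted p = 0.0427 and adjusted p = 0.285 by edgeR), and without heterozygous 1 it was 1.35 (adjusted p = 0.0350 by edgeR). It was 0.24 without the second litter date (adjusted p = 0.976 by edgeR), the lowest of the 28 settings, and 1.40 without the first (adjusted p = 0.0673 by edgeR), the highest. By litter date the log2 differences were 0.55, 1.97 and 0.54, and by level of the deposited grouping they were -0.13, 1.53 and 0.60, the first of the opposite sign. In all, edgeR without heterozygous 1 called 4 members, Hnrnpul2, Hnrnpd, Srsf2 and Srsf9, each higher in deficient libraries, or 12.9% of members beside 3.07% of all genes.

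Hnrnph2 and Hnrnpa1 were lower on average in deficient libraries. Hnrnph2, an X-linked gene for an RNA-binding protein of guanine-rich sequences, was at 73.8, 89.6, 60.3, 135 and 143 CPM in heterozygous libraries 1 to 5 and at 65.8, 60.8, 58.3, 58.4 and 61.6 CPM in deficient libraries 1 to 5. The library labelled heterozygous 4 and heterozygous 5 were the highest of all libraries, and heterozygous 3 lay among the deficient libraries. Its log2 fold change was -0.72 ± 0.23 (SE; unadjusted p = 0.00867 and adjusted p = 0.181 by edgeR). Hnrnpa1, which often represses exon inclusion, was at 86.5, 77.9, 90.6, 152 and 179.8 CPM in heterozygous libraries 1 to 5 and at 78.6, 69.9, 64.7, 73.2 and 72.0 CPM in deficient libraries 1 to 5. The same 2 heterozygous libraries were high, and deficient libraries lay within a narrow range of 64.7 to 78.6 CPM. Its log2 fold change was -0.71 ± 0.24 (SE; unadjusted p = 0.0102 and adjusted p = 0.187 by edgeR). Without the 3 libraries high for erythroid genes the log2 fold changes were -0.29 for Hnrnph2 and -0.25 for Hnrnpa1. By litter date the log2 differences were -0.30, -0.60 and -1.25 for Hnrnph2 and -0.063, -0.80 and -1.31 for Hnrnpa1. The third date sets heterozygous 5 alone against deficient 4 and 5. Summed oocyte growth markers (8 genes) were also high in the same 2 heterozygous libraries, at 611 CPM for the library labelled heterozygous 4 and 1234 CPM for heterozygous 5. They lay at 172 to 249.8 CPM for heterozygous 1 to 3 and at 151 to 214 CPM for deficient libraries. The genes Figla, Sohlh1, Nobox and Lhx8 made up nearly all of the high sums. Gdf9, Bmp15, Zp3 and Oosp1 of the same list reached at most 8.37 CPM in any library. The part of these markers in these differences was not tested. Deficient 5, which shared the high erythroid sum, was at 61.6 CPM for Hnrnph2 and 72.0 CPM for Hnrnpa1.

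**Figure D4:**
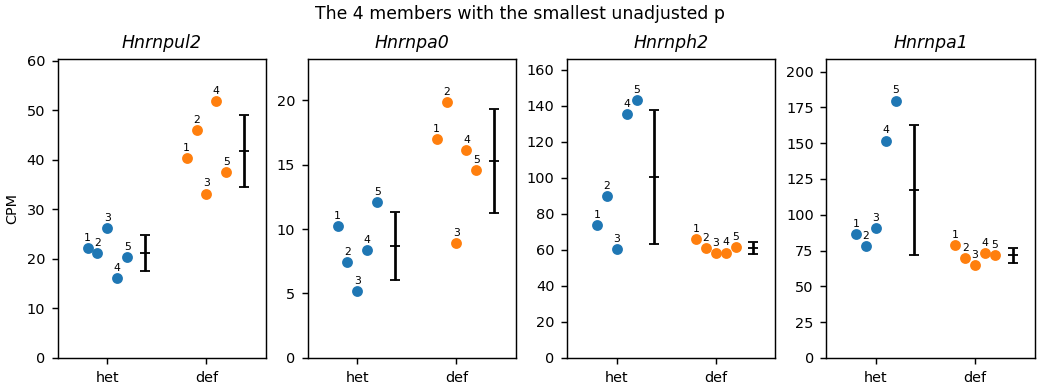
CPM of Hnrnpul2, Hnrnpa0, Hnrnph2 and Hnrnpa1 in each heterozygous (het, blue) and deficient (def, orange) library, with the replicate number above each point and bars of mean ± SD (n = 5). For Hnrnpul2 all deficient libraries (33.2 to 51.9 CPM) lie above all heterozygous libraries (16.2 to 26.2 CPM).

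Hnrnpk and Hnrnpa2b1, abundant RNA-binding proteins with broad roles in splicing and RNA transport, were also lower on average in deficient libraries, within the spread of the groups. Hnrnpk was at 1139.5 ± 340.3 CPM over heterozygous and 835 ± 162 CPM over deficient libraries (SD, n = 5 each), with heterozygous 3 highest at 1723 CPM, and its log2 fold change was -0.45 ± 0.24 (SE, adjusted p = 0.355 by edgeR). Hnrnpa2b1 was at 1636, 915, 1525, 974 and 1255 CPM in heterozygous libraries 1 to 5 and at 1096, 968, 984, 1372 and 565 CPM in deficient libraries 1 to 5. Deficient 5 was the lowest library and heterozygous 1 the highest, and the log2 fold change was -0.34 ± 0.26 (SE, adjusted p = 0.535 by edgeR). Hnrnpab, which binds single-stranded nucleic acid, was at 179, 131, 40.1, 29.5 and 98.4 CPM in heterozygous libraries 1 to 5 and at 138, 119.5, 137, 147 and 112 CPM in deficient libraries 1 to 5. Heterozygous 3 and the library labelled heterozygous 4 were far below all others while the deficient libraries lay close together, and the log2 fold change was 0.45 ± 0.40 (SE, adjusted p = 0.592 by edgeR). Hnrnpm, a splicing repressor and activator by context, was lowest in the library labelled heterozygous 4 (188 CPM) and heterozygous 5 (148 CPM), next to deficient 5 (288 CPM), and between 377 and 582 CPM elsewhere.

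The remaining hnRNP genes overlapped between genotypes. Hnrnpu, a nuclear matrix protein that binds RNA and chromatin, was at 478, 548, 395, 403 and 679.6 CPM in heterozygous libraries 1 to 5 and at 553, 499.9, 586, 495 and 435 CPM in deficient libraries 1 to 5. Heterozygous 5 was the highest library and heterozygous 3 the lowest, and the log2 fold change was 0.037 ± 0.20 (SE, adjusted p = 0.948 by edgeR). Hnrnpll, a splicing regulator first known from lymphocytes, was at 198, 168, 258, 107 and 101 CPM in heterozygous libraries 1 to 5 and at 178, 149, 218, 219 and 110.2 CPM in deficient libraries 1 to 5. It was lowest in the 3 libraries high for erythroid genes, and its log2 fold change was 0.072 ± 0.28 (SE, adjusted p = 0.922 by edgeR). The same 3 libraries were the lowest for Hnrnpf, Hnrnph1, Hnrnpm, Srsf4, Srsf5 and Srsf10. How often this holds over all genes is not given. Ranges in heterozygous and in deficient libraries were 499 to 695 and 435 to 561 CPM for Hnrnpc, which binds uridine-rich tracts, 369.9 to 707 and 391 to 773 CPM for Hnrnph1 and 117 to 187 and 134 to 186 CPM for Hnrnph3, which resemble Hnrnph2, and 169 to 350.4 and 161 to 317 CPM for Hnrnpf. They were 60.7 to 105 and 67.3 to 137 CPM for Hnrnpl, which binds CA-rich repeats, 75.1 to 196 and 80.1 to 119 CPM for Hnrnpdl, 123 to 141 and 136 to 162 CPM for Hnrnpr and 82.8 to 160.5 and 106 to 248 CPM for Hnrnpul1. Hnrnpr had the narrowest heterozygous range of all 31 members, 1.15-fold.

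As a set, the members spread more among heterozygous than among deficient libraries in 24 of 31 cases (77.4%), which is close to the 81.0% of all tested genes with a mean above 10 CPM and the 75.0% of all tested genes. The median of the log2 range was 1.21 over heterozygous and 0.77 over deficient libraries for the members, and 1.07 and 0.70 for the genes above 10 CPM. Levels differed by over 4-fold among heterozygous libraries in 4 members (Srsf9, Srsf2, Hnrnpab and Hnrnpd) and among deficient libraries in 0. Over heterozygous libraries, 9.67% of the genes above 10 CPM spread at least as widely as Hnrnpd (4.48-fold). For Hnrnpm (3.95-fold) that share was 12.6%, so the count of 4 among 31 members is near the background. Over deficient libraries, 1.99% spread at least as widely as Srsf2, the widest member there (3.79-fold). Heterozygous 1 was the highest of all 10 libraries for 8 members, heterozygous 5 for 9, heterozygous 3 for 5 and deficient 3 for 4, and heterozygous 2, the library labelled heterozygous 4 and deficient 5 for 0. The lowest library was heterozygous 3 for 8 members, the library labelled heterozygous 4 for 7 and deficient 5 for 5. These counts of highest and lowest libraries are not given over all genes, so they describe the members and show no trait particular to them. Mitochondrially encoded transcripts, 13 genes, summed to 7806 CPM in heterozygous 3 against 12119 to 22396 CPM elsewhere, and 13 immediate early and stress genes to 464 to 896 CPM in heterozygous and 367 to 625 CPM in deficient libraries; their part in these spreads was not tested.

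Levels can be compared between genes only per length. By mean TPM over the 10 libraries, Hnrnpu came first at 1127, followed by Hnrnpll at 353, Srsf5 at 225, Hnrnpa2b1 at 217, Hnrnpk at 193 and Srsf9 at 192. By CPM per kilobase of annotated exons, the order was Srsf5 at 191, Hnrnpa2b1 at 171, Srsf9 at 161 and Hnrnpk at 153, while Hnrnpu ranked 14 at 43.7 and Hnrnpll ranked 24 at 14.6. The ratio of TPM to CPM per kilobase was 25.8 for Hnrnpu, 24.2 for Hnrnpll and 11.7 for Hnrnpr, and between 1.11 and 1.38 for the other 28 members. Ratios above 10 were found in 10.7% of 9232 tested genes with a mean above 10 CPM, so the 3 members (9.68%) are near the background. TPM and CPM per kilobase disagree for these 3 members, so their levels are uncertain. The order of neighbours such as Hnrnpk and Srsf9 in mean TPM does not hold in every library, since Srsf9 ranged from 19.9 to 368 TPM and Hnrnpk from 136 to 302 TPM.

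**Figure D5:**
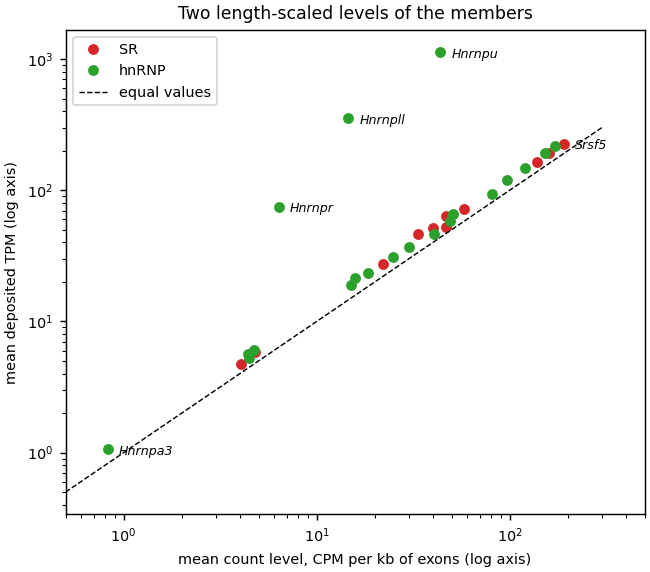
Mean deposited TPM of each member over the 10 libraries (log axis) against its mean CPM per kilobase of GENCODE M21 exons (log axis), SR genes red and hnRNP genes green, with a dashed line at equal values. Hnrnpu, Hnrnpll and Hnrnpr lie far above the line that the other 28 members follow, and Hnrnpa3 is lowest on both axes.

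Hnrnpa3 was the lowest member on both scales, at 1.06 TPM and at 4.33 ± 1.61 CPM over heterozygous and 4.60 ± 1.35 CPM over deficient libraries (SD, n = 5 each). The longest coding transcript of 10 members matched a transcript of another annotated gene at 95% identity or more over at least 300 bases. Hnrnpa3 had 27 such genes, 26 of them annotated as pseudogenes, Hnrnpa1 9, Hnrnpf 8 and Srsf3 4, and the other 6 (Hnrnpc, Hnrnph2, Hnrnpk, Hnrnpr, Srsf5 and Srsf10) had 1 or 2. No source used here says how reads with several matches were counted, so the levels of these 10 genes are uncertain, and the part of the copies in the low count of Hnrnpa3 was not tested. The names of 2 further genes, Hnrnpa1l2-ps and Hnrnpa1l2-ps2, match the rule but are annotated as processed pseudogenes, with at most 3 and 4 counts in a library. By gene span, another gene overlaps 16 members, on the opposite strand for 12.

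The other genes of splicing were described by 5 lists of 146 genes, of which 145 were tested. By edgeR 0 of 145 passed over all genes, beside 0.0% of all genes, and 26 (17.9%) had an unadjusted p under 0.05, beside 16.6% of all genes, 15 higher and 11 lower in deficient libraries. DESeq2 called 2 (background 3.02%) and limma on log2(TPM + 1) called 0, while 5 were called by limma voom with quality weights (background 2.65%). Of these genes, the authors' deposited table calls 7 higher and 1 lower, beside 6.55% of all genes called there and 3.2% called higher. The 1 called lower is Mbnl3, with a log2 fold change of -0.83 (adjusted p = 0.00184 in that DESeq2 table). The list of SR protein kinases and transport factors had 12 genes with a median difference of 0.050 on the log2 scale. Dyrk1a, a kinase that phosphorylates splicing factors, was at 27.5 ± 3.26 CPM over heterozygous and 42.3 ± 6.85 CPM over deficient libraries (SD, n = 5 each). The difference for Dyrk1a on the log2 scale was 0.62 ± 0.18 (SE, adjusted p = 0.155 by edgeR), and the genotypes did not overlap. Nxf1, the mRNA export receptor and the gene of this list with the highest mean, was at 475 ± 202 CPM over heterozygous and 408 ± 42.9 CPM over deficient libraries (SD, n = 5 each). The difference for Nxf1 on the log2 scale was -0.22 ± 0.26 (SE, adjusted p = 0.690 by edgeR). Its direction turned without heterozygous 3 (0.050).

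SR-related factors had a median of 0.037 over 26 tested genes. By edgeR 5 had an unadjusted p under 0.05 (19.2%, beside 16.6% of all genes), 4 higher and 1 lower. Scaf11, an SR-related protein of spliceosome assembly, was at 84.6 ± 9.78 CPM over heterozygous and 133 ± 16.0 CPM over deficient libraries (SD, n = 5 each). The difference for Scaf11 on the log2 scale was 0.65 ± 0.16 (SE, adjusted p = 0.142 by edgeR), and all deficient libraries were above all heterozygous libraries. Srrm2, a scaffold of nuclear speckles, was at 688 ± 153 CPM over heterozygous and 779.7 ± 69.7 CPM over deficient libraries (SD, n = 5 each). The difference for Srrm2 on the log2 scale was 0.18 ± 0.20 (SE, adjusted p = 0.673 by edgeR). Other splicing regulators of the hnRNP kind had a median of 0.019 over 48 genes. By edgeR 11 had an unadjusted p under 0.05 (22.9%, beside 16.6% of all genes), 4 higher and 7 lower. Sfpq, a splicing and paraspeckle protein, was at 27.4 ± 6.61 CPM over heterozygous and 59.8 ± 10.4 CPM over deficient libraries (SD, n = 5 each). The difference for Sfpq on the log2 scale was 1.12 ± 0.21 (SE, adjusted p = 0.113 by edgeR), and all deficient were above all heterozygous libraries. It was called in 5 of 28 settings, among them DESeq2 (adjusted p = 9.67e-04) and edgeR with the deposited grouping as a covariate (adjusted p = 0.0326). Ewsr1, an RNA-binding protein of the FET family, was at 766 ± 417 CPM over heterozygous and 540.5 ± 97.1 CPM over deficient libraries (SD, n = 5 each). The difference for Ewsr1 on the log2 scale was -0.50 ± 0.32 (SE, adjusted p = 0.437 by edgeR), and its fold change was -0.15 without heterozygous 3. For Puf60, Rbm10, Khdrbs2 and Rbm5 of this list, all deficient libraries were below all heterozygous libraries. Their log2 differences were -0.57, -0.40, -0.94 and -0.52 (adjusted p = 0.207, 0.237, 0.257 and 0.299 by edgeR). Khdrbs2 was low, at a mean of 1.09 CPM.

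The spliceosome core list of snRNP proteins had a median of 0.019 over 42 genes. By edgeR 4 had an unadjusted p under 0.05 (9.52%, beside 16.6% of all genes), 2 higher and 2 lower. Sf3b4, a subunit of the complex that recognises the branch point, was at 126 ± 39.3 CPM over heterozygous and 76.2 ± 18.5 CPM over deficient libraries (SD, n = 5 each). The difference for Sf3b4 on the log2 scale was -0.72 ± 0.24 (SE, adjusted p = 0.187 by edgeR). Sf3b1, the largest subunit of that complex, was at 517 ± 64.9 CPM over heterozygous and 536 ± 68.7 CPM over deficient libraries (SD, n = 5 each). The difference for Sf3b1 on the log2 scale was 0.054 ± 0.18 (SE, adjusted p = 0.906 by edgeR). Genes of nonsense-mediated decay and of the exon junction complex had a median of 0.14 over 17 genes. By edgeR 5 had an unadjusted p under 0.05 (29.4%, beside 16.6% of all genes). Of these, 4 were higher and 1 lower, beside 7.45% and 9.13% of all genes. Upf2, a core decay factor, was at 59.6 ± 13.0 CPM over heterozygous and 93.9 ± 10.2 CPM over deficient libraries (SD, n = 5 each). The difference for Upf2 on the log2 scale was 0.66 ± 0.18 (SE, adjusted p = 0.155 by edgeR), and the genotypes did not overlap. Rbm8a, a core protein of the exon junction complex, was at 291 ± 59.6 CPM over heterozygous and 269 ± 31.7 CPM over deficient libraries (SD, n = 5 each). The difference for Rbm8a on the log2 scale was -0.11 ± 0.19 (SE, adjusted p = 0.802 by edgeR). The genotypes did not overlap for 10 of the 145 genes, beside 3.53% of all genes. They include Dyrk1a, Luc7l, Scaf11, Sfpq and Upf2, higher in deficient libraries, and Puf60, Rbm10, Khdrbs2 and Rbm5, lower there.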

How the data were processed

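The authors deposited whole-number counts per gene, labelled as featureCounts output, and TPM, labelled as StringTie output. The submitters' processing notes name Trim Galore 0.5.0, HISAT2 2.1.0, StringTie 1.3.3b, Subread 1.6.2 with featureCounts and DESeq2, and the build GRCm38. Strand and multiple-match settings are not stated. The authors' deposited DESeq2 table gives a log2 fold change with its standard error, a score (Wald statistic), a mean normalized count signal and p-values, raw and adjusted, per the file headers. Its covariates are not stated; 9300 groupings of the libraries were compared to find the grouping that rebuilds it, and a DESeq2 refit with the best matched all 31181 deposited fold changes to within 0.00555. All libraries were matched to samples by genotype and replicate number. Of 55536 genes, 382 had no symbol (0.0632% to 0.0945% of counts).

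The main test was edgeR 4.0.16 under R 4.3.3 (quasi-likelihood test on genotype, TMM scaling, filterByExpr, 19244 genes, Benjamini-Hochberg adjustment, threshold 0.05); SE is the fold change over the square root of F. The test was tested on simulated counts. Alternatives were other scalings and filters, DESeq2 1.42.0, limma 3.58.1, a term for litter date or for replicate number, and libraries left out; 3 were added after the data were seen. Litter dates divide both genotypes. Exon lengths, overlaps and transcript matches come from GENCODE M21, whose coordinates equal those deposited for all 31 members, and promoters from RefSeq GRCm38.p6. Members, lists and alternatives were chosen with earlier results of these data known. Values by library are given for the 6 members with the smallest p and the 3 SR and 3 hnRNP genes with the highest mean TPM. They are also given for members called in the deposited table and members without overlap. Hnrnpab was added after its values were seen, as was the Taf4b check. The genes named singly from the meiotic prophase, oocyte growth and pan-germ cell lists were also added after their values were seen. From each list the gene with the smallest p and that with the highest mean are given. Luc7l, Puf60, Rbm10, Khdrbs2, Rbm5 and Mbnl3 were added after their values were seen.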

Additional observations from a re-analysis of the deposited data

Results flagged for a closer look

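In 2 of 62 groups of 5 libraries (31 members in 2 genotypes), a library stood apart from the other 4 of its genotype by more than Dixon's 95% critical value of 0.71 on log2 CPM; chance gives about 1 in 20 groups. Srsf9 was at 145 CPM in deficient 5, while deficient 1 to 4 lay between 387 and 429 CPM. Hnrnpm was at 288 CPM in the same library, while deficient 1 to 4 lay between 429 and 503 CPM. Deficient 5 also had the high erythroid sum of 1605 CPM among deficient libraries (107 to 220.2 CPM in the others), and its part in these values was not tested.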

How the results depend on the processing

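Over 28 alternatives the count of called members was 0 except for 1 with DESeq2, limma voom with quality weights, no low-count filter and the deposited grouping in the model, and 0 to 4 without single libraries (4 without heterozygous 1). The count over all genes was 643 with DESeq2, 510 with limma voom, 251 without the low-count filter, 104 with the deposited grouping, 3 with bias-adjusted deviances, 1 with the replicate block and 0 to 606 without single libraries (606 without heterozygous 1). For the related splicing genes it was 2 with DESeq2, 5 with limma voom, 1 without the filter, 1 with the deposited grouping and 0 to 2 without single libraries. The median log2 fold change of the members ran from -0.051 to 0.14, beside 0.037 in the main fit. Each setting moved it from the main value by less than 0.192, the SD of the members' median level between libraries of a genotype. That SD describes single libraries and is not the error of a difference between genotypes. The median over all genes moved by -0.01 and -0.02 under the other scalings, and moved to 0.12 with DESeq2 and without the low-count filter, both over more genes. Signs were followed for the 12 members with values by library by the naming rule. They were also followed for the 10 list genes named for the smallest p or the highest mean. Of these genes, 17 kept the sign of their fold change in all settings and 5 did not. Of the other 19 members, 8 kept it and 11 did not, and none was called by any of the 28. For Srsf5 it was -0.089 with the deposited grouping, -0.0068 by limma on log2(TPM + 0.1), -0.0069 by limma on log2(TPM + 1), -0.13 without the first level of the grouping and -0.19 without the 3 libraries with high alpha-globin counts, and ran from -0.095 to 0.25 without single libraries. For Hnrnpu it was -0.051 by limma on log2(TPM + 0.1), -0.051 by limma on log2(TPM + 1), -0.013 without composition scaling, -0.070 without the second level of the grouping and -0.20 without the second litter date, and ran from -0.046 to 0.17 without single libraries. For Hnrnpll it was -0.039 with the deposited grouping, -0.015 leaving out the third litter date and -0.12 without the 3 libraries with high alpha-globin counts, and ran from -0.064 to 0.28 without single libraries. For Sf3b1 it was -0.057 by limma on log2(TPM + 0.1), -0.057 by limma on log2(TPM + 1), -0.028 leaving out the third litter date and -0.0082 without the 3 libraries with high alpha-globin counts, and ran from -0.014 to 0.11 without single libraries. For Nxf1 it was 0.22 without the second level of the grouping, and ran from -0.35 to 0.050 without single libraries. With replicate number as a block, 0 members were called; same-numbered libraries had correlations of deviations from -0.262 to 0.593, only the pair numbered 5 matched its own number best, and libraries 2 and 4 differ in litter date between genotypes, so the numbers do not pair the samples. Each member had at least 60 counts in every library.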
